A study of Mus musculus with 4 samples.

Results

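The transcriptome described here is that of mouse T helper 2 (Th2) cells grown with the vehicle DMSO and collected 12 h after restimulation, as read in the 2 DMSO libraries out of 4 libraries in the series. Members were chosen by the treatment label alone, and the libraries from cells given HU-308 are not used here. Both libraries came from wild-type mouse cells that the labels place in the bleomycin model of systemic sclerosis (BLM-SSc). Naive CD4+ T cells grew under Th2 polarising conditions with DMSO, met beads that bind CD3 and CD28 on day 4, and were harvested 12 h later. There was no unstimulated or unpolarised library, so every value is a level at a single time point and no gene can be said to have been induced or repressed. The labels do not say whether replicates 1 and 2 came from separate animals or cultures, so the spread between them may be technical.

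Th2 cells are the CD4+ helper lineage that makes interleukins 4, 5 and 13 and acts in allergy, defence against worms and fibrosis. Interleukin 4 signals through its receptor and STAT6 to raise GATA3, the factor that opens the locus holding Il4, Il13 and Il5. When the antigen receptor and CD28 are engaged again, calcium, NFAT, AP-1 and NF-kB drive a burst of cytokine transcription, while the cells enlarge, divide and rely on glycolysis.

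Levels are given as FPKM, the authors' counts scaled to gene length and library depth, always with DMSO replicate 1 first and replicate 2 second. Rank 1 is the highest FPKM in a library. The libraries held 18041457 and 20479254 counts, with at least 1 read in 20734 and 21289 gene identifiers. At these depths 3 counts, the floor used here, correspond to 0.166 and 0.146 CPM, counts scaled to the library total. A gene was called expressed at 1 FPKM or more in both libraries, which held for 11209 of 54532 identifiers (20.6%) and for 9517 of 22046 protein-coding genes (43.2%). These shares are the background for every count of list members below. The libraries ranked the 11209 expressed genes much alike (Spearman's rho across genes 0.963, genes not being independent). Their counts still differed well beyond sampling noise, with a chi-square per degree of freedom of 26.8 over 23234 genes, so they are not copies of the same reads. Across expressed genes, the median absolute difference between libraries was 0.21 on the log2(FPKM + 1) scale.

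The 5 marker genes used for the labelled cell type stood high in both libraries. They were chosen with earlier results of these data known, so their levels are no test of the label. Gata3 (ENSMUSG00000015619, chromosome 2), the lineage factor of Th2 cells, stood at 123 and 122 FPKM, ranks 300 and 324. Il4ra, the receptor chain for interleukins 4 and 13, stood at 383 and 528 FPKM, ranks 63 and 45. Ccr4, a chemokine receptor of Th2 cells, was at 193 and 201 FPKM. Gata3 and Ccr4 thus had nearly equal levels in both libraries, while Il4ra was higher in replicate 2. Thy1, a surface protein of T cells, was at 298 and 352 FPKM, and the cytokine gene Il24 at 490 and 829. All 5 genes ranked within the first 324 of each library. Other genes of Th2 cells stood lower, such as Il4 at ranks 2533 and 2394 and Il5 at ranks 6128 and 5454. Of the pan-T genes, Trbc2, the constant region of the T cell receptor beta chain, was at 363 and 513 FPKM, Cd4 at 99 and 142, and Cd3e at 40.01 and 43. Cd8a had 4 and 5 counts.

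**Figure D1:**
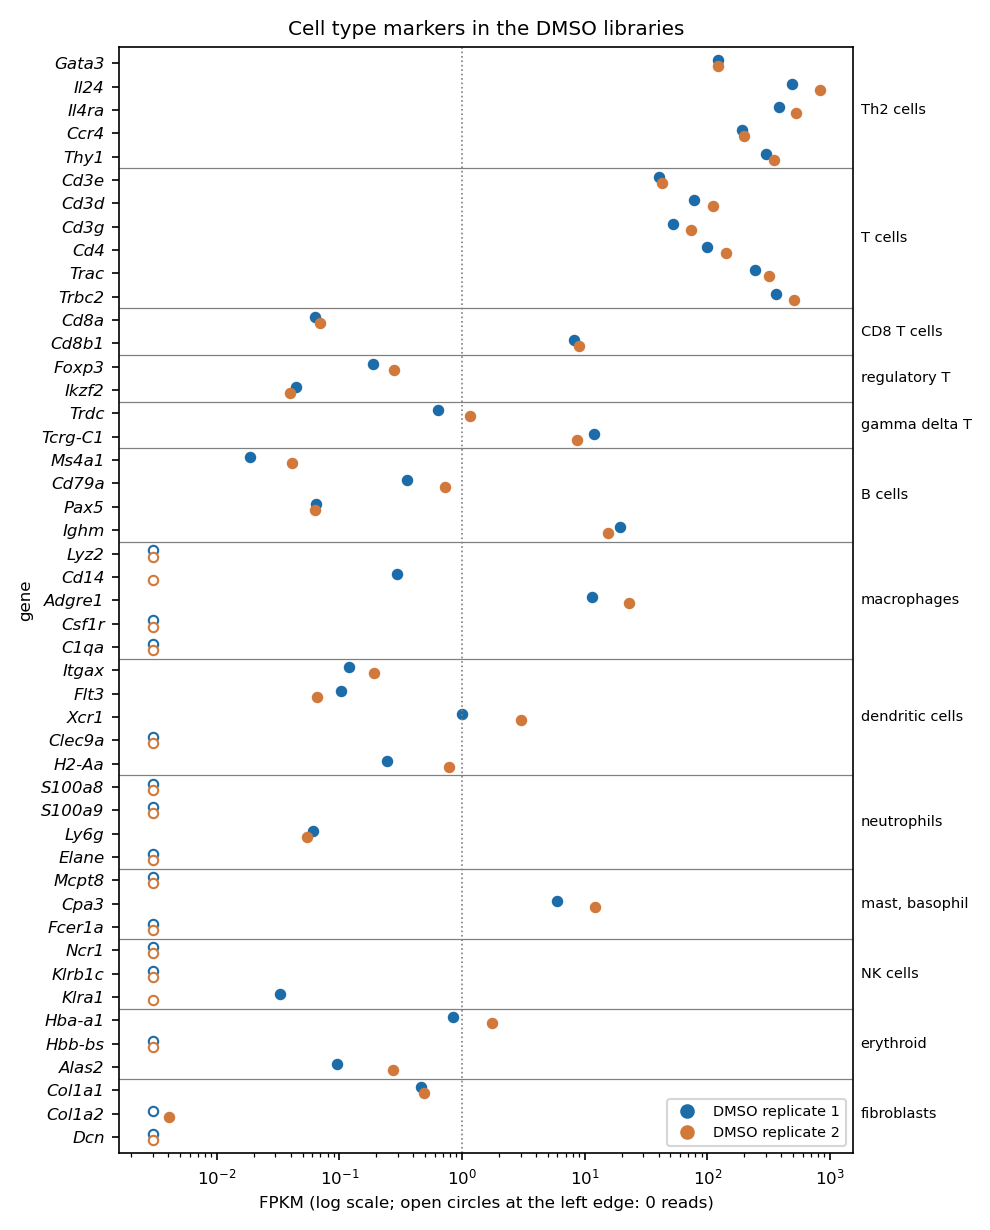
Level of each cell type marker gene in FPKM (log scale, one row per gene, grouped by cell type) in DMSO replicate 1 (blue) and DMSO replicate 2 (orange), with open circles at the left edge for 0 reads and a dotted line at 1 FPKM. The Th2 markers, which include the general T cell gene Thy1, and the T cell markers lie at 40 FPKM or more in both libraries. Most markers of other cells lie below 1 FPKM, with Ighm, Adgre1, Cpa3, Cd8b1 and Tcrg-C1 above that line in both libraries.

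Transcription was concentrated in few genes. The 10 highest genes took 10.8% and 11.7% of all FPKM, the 100 highest took 28.3% and 29.1%, and 59.5% and 60.4% lay in the 1000 highest. Of the 30 highest protein-coding genes, 6 are encoded by the mitochondrial genome, 8 encode ribosomal proteins or elongation factors and 4 encode actins, a thymosin or vimentin. The mitochondrial gene mt-Co1 led with 6216 and 4788 FPKM. The elongation factor gene Eef1a1 followed at 4429 and 4415 FPKM and the ribosomal stalk gene Rplp1 at 3373 and 4657. Among the rest were genes tied to activated T cells and secretion. Gzmb, the serine protease granzyme B, stood at 1016 and 4041 FPKM, ranks 19 and 5. Il2ra, the high-affinity chain of the interleukin 2 receptor, stood at 1170 and 875 FPKM, ranks 14 and 25. Ecm1, a secreted matrix protein with a known role in the exit of Th2 cells from lymph nodes, was at 1109 and 1729 FPKM, and Lgals1, a secreted lectin, at 664 and 1083. Granzyme B and Ecm1 were higher in replicate 2, and Il2ra was higher in replicate 1. Also among the 30 were B2m (1048 and 1031 FPKM), the light chain of MHC class I, the tetraspanin Cd53 (720 and 925) and the glycolytic genes Pgk1 and Pkm. One of the highest identifiers of any kind, Gm23935, is annotated as a 57-base miRNA and had 4894 and 6005 FPKM from 4859 and 6733 counts, since each count weighs heavily in FPKM when a gene is short.

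**Figure D2:**
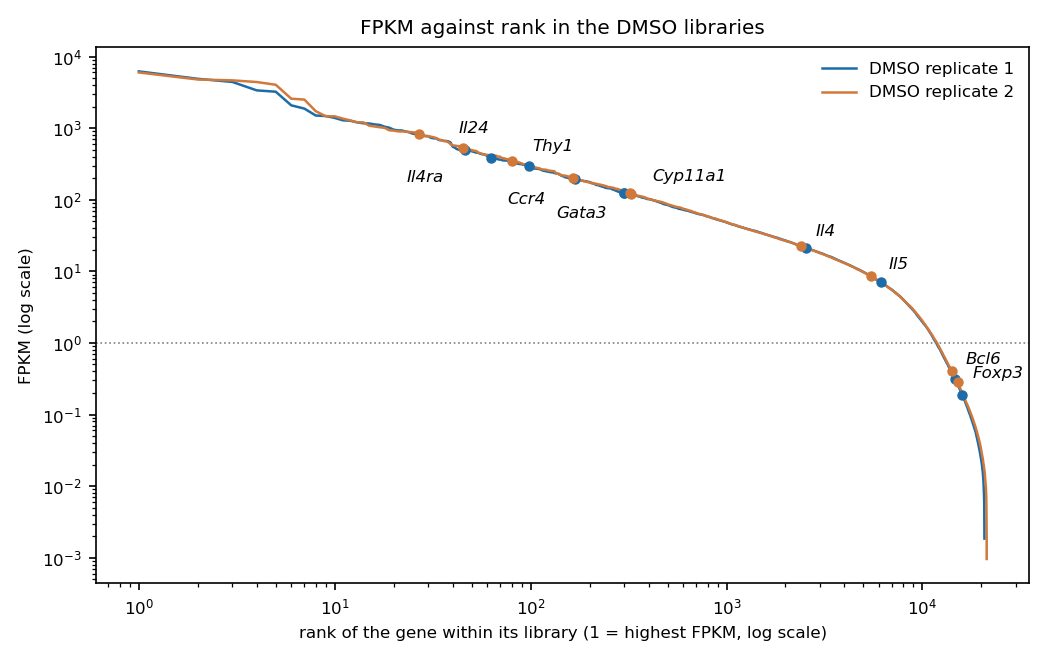
FPKM of each gene with a read against its rank within its library (both axes log scale) for DMSO replicate 1 (blue line) and DMSO replicate 2 (orange line), with named genes as points and a dotted line at 1 FPKM. Il24 and Il4ra lie within the first 100 ranks, Il4 and Il5 lie far lower, and Bcl6 and Foxp3 lie below 1 FPKM in both libraries.

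The type 2 cytokine genes differed greatly in level. Of 15 listed genes 6 were expressed (40%, near the 43.2% of all protein-coding genes). No read was found for 5 of the 15 in either library, near the 32.5% of all protein-coding genes. Il24, a member of the interleukin 10 family, was by far the highest, with 11824 and 22591 counts and ranks 46 and 27. Il10, the anti-inflammatory cytokine of the same family, reached 187 and 255 FPKM, ranks 176 and 126. Il4, the founding cytokine of the lineage, stood much lower, at 21.4 and 22.6 FPKM, ranks 2533 and 2394. Il13, which drives mucus secretion and fibrosis, was at 16.9 and 24.9 FPKM. Il5, the growth factor of eosinophils, was at 7.06 and 8.53 FPKM, ranks 6128 and 5454, close to the median of all expressed genes (8.19 and 8.15 FPKM). In both libraries the order was Il24, Il10, then Il4 and Il13, then Il5; Il13 lay below Il4 in replicate 1 and above it in replicate 2, so these neighbours were not separated. Il6 followed at 2.25 and 6.87 FPKM. Some 27.1% of the exon bases of Il5 lie opposite Gm12214, which had no read in either library.

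The other type 2 genes were near or at 0. Il31, a cytokine of itch, had 7 and 34 counts (0.333 and 1.43 FPKM), and Areg, an epidermal growth factor ligand, 13 and 26. Csf2, which encodes GM-CSF, had 5 and 2 counts. Il3 and Il9 had 0 counts in both libraries, where 3 counts would have been 0.274 and 0.242 FPKM for Il3 and 0.321 and 0.285 for Il9. Tslp, Il25 and Il33, cytokines chiefly of epithelium, had 0 counts as well.

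Within the Th2 locus on chromosome 11 of GRCm38, genes at very different levels lay within a short stretch. From Il4 (53602982 to 53618669) through Il13 (53631324 to 53634702) to Il5 (53720794 to 53725106), the locus also holds Rad50, a DNA repair gene at 47.9 and 37.3 FPKM, and next to it Kif3a, a kinesin gene at 33.1 and 25.4 FPKM. Rad50 was thus above all the cytokines of its locus, in both libraries. Farther along, Csf2 (54247271 to 54249667) and Il3 (54265303 to 54267277) had 7 and 0 counts over both libraries together. The 120 bases before the transcription start are printed for some of these cytokine genes, from RefSeq on GRCm38.p6. They are Il4 (chr11:53618666-53618785, minus strand), Il13 (chr11:53634703-53634822, minus strand), Il5 (chr11:53720674-53720793, plus strand) and the more distant Il3 (chr11:54267280-54267399, minus strand). Whether these bases bear on the levels was not tested. Capitals mark GGAAA or its reverse complement TTTCC, the core that NFAT proteins bind.
Il4: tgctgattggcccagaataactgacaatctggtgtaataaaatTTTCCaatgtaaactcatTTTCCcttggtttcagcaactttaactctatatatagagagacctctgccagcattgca
Il13: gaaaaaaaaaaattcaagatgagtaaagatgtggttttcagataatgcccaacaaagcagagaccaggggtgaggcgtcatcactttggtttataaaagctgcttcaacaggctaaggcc
Il5: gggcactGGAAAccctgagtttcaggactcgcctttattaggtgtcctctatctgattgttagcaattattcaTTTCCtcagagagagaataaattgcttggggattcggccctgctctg
Il3: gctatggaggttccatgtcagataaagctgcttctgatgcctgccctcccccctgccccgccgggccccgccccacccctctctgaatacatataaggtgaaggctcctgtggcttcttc
The NFAT core was found 2 times each before Il4 and Il5 and 0 times before Il13 and Il3. The entry for Csf2 starts 232 bases from the gene start in the authors' table, so its window, which holds the core 1 time, is not printed. It occurs on either strand in 31% of 32851 promoter windows of this length. The TATA box, searched as TATAAA on both strands, was found before Il13 only (6.34% of windows hold it). The CCAAT box, searched as CCAAT on both strands, was found 2 times before Il4 and overlapped the NFAT core at 1 of them (21.3% of windows hold it). The AP-1 site, searched as TGANTCA, was in none of the printed windows and is in 3.41% of all. Il10 and Il24 had no entry in the table of promoters used.

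Il24 and Il10 also share a locus, on chromosome 1. Il24 (130882074 to 130887454), Il20 (130906985 to 130911451), Il19 (130932656 to 130940115) and Il10 (131019845 to 131024974) are neighbours of the interleukin 10 family. Il20 was at 1.45 and 1.29 FPKM and Il19 at 4.3 and 9.2 FPKM, both named after their values were seen. The outer members of the cluster were therefore high and the inner members low in both libraries.

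Cytokines outside the type 2 group were partly expressed, 22 of 44 (50%, against 43.2% of all protein-coding genes). Mif, a broadly made inflammatory mediator, was at 319 and 196 FPKM. Tgfb1, which restrains T cells and drives fibrosis, was at 126 and 150 FPKM. Lif, an interleukin 6 family cytokine, was at 87.1 and 69.0 FPKM, and its relative Osm at 32.1 and 44.7. Penk, the precursor of enkephalin peptides, reached 42.3 and 37.1 FPKM. Cd40lg, the helper signal for B cells, was at 21.6 and 45.1 FPKM, and the lymphotoxin genes Lta and Ltb at 17.4 and 28.0, and at 16.3 and 30.5. Tnf was lower, at 5.08 and 6.05 FPKM. The cytokines that define other helper lineages were at or near 0. Ifng of Th1 cells had 1 and 0 counts, Il17a of Th17 cells 2 and 1 and Il22 none. Il2, the T cell growth factor, had 0 counts in both libraries, a limit of 0.151 and 0.133 FPKM at 3 counts. Few chemokine genes had reads: of 30 listed, 22 had 0 counts, including Ccl3, Ccl4 and Xcl1. Over all protein-coding genes the share with 0 counts was 32.5%. Ccl25, a chemokine for the gut and thymus, was the only member called expressed, at 2.65 and 2.89 FPKM, and Ccl22, a ligand of CCR4, had 32 and 63 counts.

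**Figure D3:**
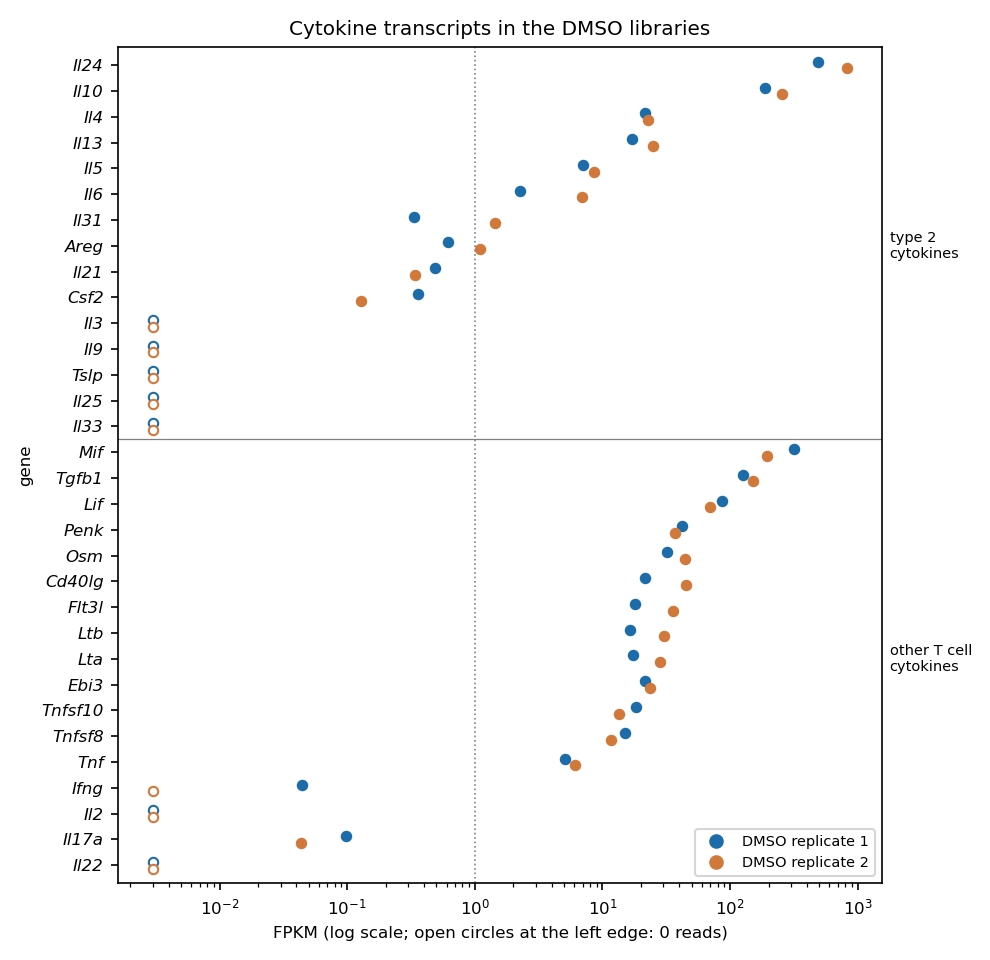
Level of cytokine genes in FPKM (log scale, one row per gene) in DMSO replicate 1 (blue) and DMSO replicate 2 (orange), with open circles at the left edge for 0 reads and a dotted line at 1 FPKM. Il24 and Il10 lie above 180 FPKM, Il4, Il13 and Il5 between 7 and 25 FPKM, and Il3, Il9, Il2 and Il22 have no read in either library.

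Cytokine receptors were expressed for 31 of 52 listed genes. All chains of the interleukin 2 receptor were present, with Il2rb at 379 and 485 FPKM and the common chain Il2rg at 70.5 and 78.9, besides Il2ra. Il4ra was high, while Il13ra1, its partner for interleukin 13 in other cells, had 0 counts. The separate interleukin 13 receptor gene Il13ra2 had 0 counts as well. Il1r2, a decoy receptor for interleukin 1, was at 129 and 142 FPKM, far above the signalling receptor Il1r1 at 4.3 and 5.56 FPKM. Il7r, for the survival cytokine interleukin 7, was at 91.7 and 111 FPKM and Il21r at 73.9 and 104. Receptors for the epithelial alarmins lay lower. Il1rl1, which binds interleukin 33, stood at 28.5 and 57.9 FPKM, Crlf2, part of the TSLP receptor, at 34.6 and 44.1, and Il17rb, for interleukin 25, at 5.48 and 3.91. Of the interleukin 12 receptor, Il12rb1 was at 46.4 and 73.8 FPKM, while Il12rb2, the chain that gives Th1 responses, had 29 counts in each library; 40.04% of its exon bases overlap Serbp1, so these counts are uncertain. The receptors Csf1r and Csf3r of myeloid cells had 0 counts.

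Of 36 chemokine and trafficking receptors, 24 were expressed. The integrin genes Itgb3 (189 and 345 FPKM), Itgb7 (182 and 263) and Itgb2 (178 and 235) had the highest means of the list and were all higher in replicate 2, while in replicate 1 Ccr4 (193 FPKM) lay above them. Besides Ccr4, the Th2 receptor Ccr8 was at 85.8 and 97.0 FPKM and Cxcr6 at 80.9 and 176. Ccr7, which guides T cells to lymph nodes, was at 97.8 and 20.5 FPKM a gap wide enough that no common level can be given. S1pr1, a receptor that guides exit from lymph nodes, named after its values were seen, was at 36.6 and 17.9 FPKM and so lower in replicate 2 as well. Ptgdr2, the prostaglandin D2 receptor CRTH2 known from human Th2 cells, had 0 counts. However, 39.0% of its exon bases lie opposite Ccdc86, which had 568 and 476 counts, so this absence is uncertain. Receptors of other helper lineages, Cxcr3 of Th1, Ccr6 of Th17 and Cxcr5 of follicular helper cells, had between 0 and 7 counts per library. Cd69, an early activation marker, was at 0.759 and 1.69 FPKM.

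The antigen receptor and its signalling genes were almost complete, with 25 of 27 expressed. Trac was at 246 and 317 FPKM, Cd3d at 77.3 and 112, and Cd3g at 52.4 and 74.2. The kinase genes Lck (115 and 148 FPKM) and Zap70 (73.6 and 99.9) and the adaptor Lat (93.1 and 124) had similar levels. Cd247, the zeta chain, was at 22.2 and 33.9 FPKM, but 56.4% of its exon bases overlap Pou2f1. The variable segments were diverse. All 22 beta variable segments in the table had reads in both libraries, and Trbv1 was highest with 20.2% (95% Wilson interval 18.8 to 21.7) and 20.4% (19.3 to 21.5) of their counts. Trbv3, Trbv19, Trbv13-2 and Trbv2 each took between 8.95% and 12.6%. The order of the 22 segments was almost the same in both libraries (Spearman's rho 0.975 across segments). Of 108 alpha variable segments, 73 had reads in both. The highest differed between libraries: Trav14d-3-dv8 with 5.75% of counts in replicate 1 and Trav14n-3 with 4.52% in replicate 2. The gamma variable segment in the table had 61 and 139 counts and the delta variable segments 4 and 16 in all, against 3045 and 5319 for the beta segments. Intervals and floors cover counting error only, not the spread between cultures or animals. No molecular identifiers are named for the reads.

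Receptors that costimulate or inhibit T cells were expressed for 20 of 30 genes. TNF receptor family members were among the highest: Tnfrsf8 (CD30) at 681 and 575 FPKM, Tnfrsf4 (OX40) at 316 and 487, and Tnfrsf9 (4-1BB) at 208 and 381. Icos, a CD28 relative, was at 371 FPKM in both libraries, above Tnfrsf4 and Tnfrsf9 in replicate 1. Inhibitory receptors covered a broad range. Tigit was at 152 and 160 FPKM and Ctla4 at 45.2 and 64.0, while Lag3 (6.32 and 3.78), Pdcd1 (2.92 and 3.16) and Havcr2 (1.56 and 3.64) were low, and Havcr1 (TIM-1) had 0 counts. Cd28 itself was at 46.6 and 27.1 FPKM.

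Th2 lineage and interleukin 4 pathway factors were expressed for 23 of 24 genes in the table, with a median of 35.2 and 38.6 FPKM. Nfil3 (182 and 191 FPKM), Ikzf1 (143 and 163), Irf4 (165 and 126), Batf (127 and 142) and Ets1 (117 and 140) stood around or above Gata3. Irf4 and Batf act together at AP-1 composite elements in activated T cells. Stat6, the transducer of interleukin 4, was more modest, at 26.7 and 28.4 FPKM. Maf, an activator of Il4 and Il10, was at 33.0 and 60.9 FPKM, and Pparg, a lipid-sensing factor of Th2 cells, at 36.7 and 38.6. Gfi1, a repressor that supports Th2 growth, was at 33.7 and 24.8 FPKM. Bhlhe41, also known as DEC2, was the exception, with 28 and 16 counts (0.239 and 0.121 FPKM), while its relative Bhlhe40 was at 9.24 and 9.26.

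Factors that define other helper fates were expressed for 20 of 33 genes, but not the central ones. Tbx21, the Th1 factor T-bet, had 0 counts, a limit of 0.0692 and 0.0613 FPKM at 3 counts. Foxp3 of regulatory T cells had 13 and 22 counts (0.187 and 0.280 FPKM), of which part may be shared with Flicr, which covers 18.6% of its exon bases. Bcl6 of follicular helper cells had 37 and 53 counts (0.317 and 0.402 FPKM), and Ascl2 had none. Expressed members were mostly broad factors. Id2, an inhibitor of E proteins, was at 131 and 164 FPKM, Stat3 at 40.8 and 56.5, and Prdm1, which encodes Blimp-1 and restrains cytokine genes, at 31.7 and 36.8. Runx3 (27.4 and 22.3 FPKM), Lef1 (20.1 and 15.7) and Tcf7 (4.57 and 5) were also expressed.

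Among 31 activation-induced factors, 24 were expressed. The immediate early genes were low, with Fos at 5.93 and 4.34 FPKM, Egr1 at 2.02 and 1.34, Jun at 1.26 and 1.55, Nr4a1 at 0.753 and 0.710 and Fosb at 2 and 9 counts. Hif1a, the factor of oxygen sensing and glycolysis, was at 277 and 312 FPKM, and Xbp1, the factor of the unfolded protein response, at 215 and 266. Jund (73.7 and 110 FPKM) and Junb (78.1 and 67.7) were the highest Jun and Fos family genes, with Fosl2 at 14.9 and 28.0. Batf, also of the AP-1 group, was higher than these, at 127 and 142 FPKM. Nfkb1 stood at 60.3 and 82.8 FPKM and Rela at 44.8 and 45.8. Myc, the driver of growth, was at 35.7 and 19.4 FPKM and Batf3 at 22.5 and 6.56, both lower in replicate 2. All 12 SOCS and JAK genes were expressed. Jak3, which partners the common receptor chain, was at 87.8 and 105 FPKM and Jak1 at 69.7 and 100. Of the feedback inhibitors, Socs1 was at 80.6 and 90.1 FPKM, Cish at 67.4 and 95.2 and Socs2 at 54.3 and 51.3. Socs3 was at 58.7 and 145 FPKM, a wider gap than for its relatives.

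Of 1469 genes to which the authors' table gives a transcription factor family, 664 were expressed (45.2%), close to the share of all protein-coding genes. The families differed widely. The families are the authors' and are broad, with Smarcc2 placed under MYB, Cers2 under homeobox and Tfdp1 under E2F. All 7 members of the STAT family and all 10 of the E2F family were expressed. So were 9 of 10 in the Rel homology family, 22 of 24 in the MYB family and 34 of 48 in the bZIP family. By contrast, 19 of 232 members of the homeobox family, 1 of 17 T-box, 1 of 15 Pou and 0 of 9 PAX members were expressed. Xbp1, the cold-shock protein gene Ybx1 (267 and 206 FPKM) and Hmgb2 (214 and 188 FPKM), a chromatin protein of dividing cells, were the highest of the 1469. Not every factor is given a family: Hif1a is not among the 1469 and was above Xbp1 in both libraries.

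**Figure D4:**
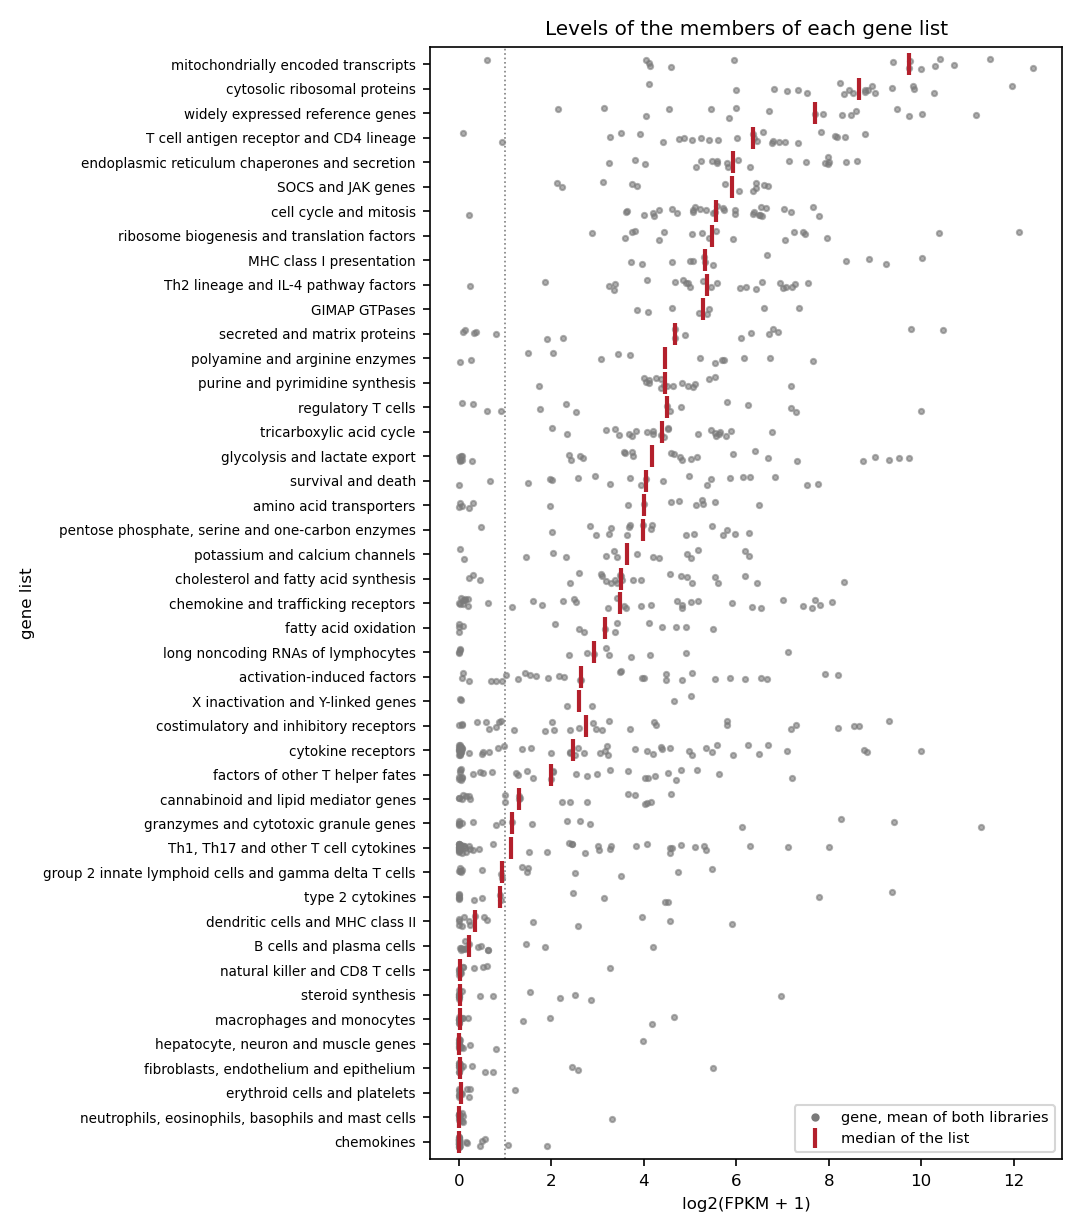
Mean level over both DMSO libraries on the log2(FPKM + 1) scale (horizontal axis) for the members of each of 45 gene lists (rows; grey points are genes, red bars are the medians of lists), with a dotted line at 1 FPKM. Mitochondrial, ribosomal, reference and antigen receptor genes have the highest medians, and lists of other cell types and chemokines lie at the left with a few genes apart.

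The plot of list levels shows that many metabolic and growth lists lay in the upper part of the range, but not all. Fatty acid oxidation had medians of 8.31 and 7.55 FPKM, and cholesterol and fatty acid synthesis of 10.2 and 11.3. Glycolysis genes were expressed for 23 of 30. Pgk1 was at 839 and 867 FPKM, Pkm at 772 and 694, Ldha at 663 and 599, Aldoa at 498 and 532 and Eno1 at 487 and 368. The glucose transporter Slc2a3 was at 49.8 and 70.3 FPKM. The 7 genes not expressed included tissue forms such as the liver form Pklr, with 0 counts, and the muscle transporter Slc2a4, with 4 and 2. Gapdh was listed at 4.78 and 20.2 FPKM from 344 and 1644 counts, far under its neighbours in the pathway; it has many processed copies in the mouse genome, so its counts are uncertain. All 24 genes of the tricarboxylic acid cycle were expressed, but at a lower median of 19.7 and 20.2 FPKM.

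Biosynthetic pathways were nearly complete. All 18 purine and pyrimidine synthesis genes were expressed, led by the ribonucleotide reductase subunit Rrm2 at 171 and 116 FPKM. Of the serine, one-carbon and pentose phosphate enzymes 18 of 19 were expressed, with Phgdh, the entry to serine synthesis, at 86.5 and 65.4 FPKM and Shmt2 at 60.1 and 42.5. Amino acids enter activated T cells chiefly through Slc7a5, which was at 95 and 82.2 FPKM, and Slc1a5, at 48.3 and 42.8. Cholesterol and fatty acid synthesis was expressed for 22 of 25 genes, with the desaturase Scd2 at 314 and 324 FPKM and Fasn at 93.2 and 78.1. Fatty acid oxidation genes were lower, 11 of 15 expressed, with the gate enzyme Cpt1a at 27.5 and 22.6 FPKM, while Ppara, Ppargc1a and the lipid receptor Cd36 had 0 counts. Odc1, the entry to polyamine synthesis, was at 85.7 and 55.7 FPKM, and Eif5a, the protein that carries the polyamine-derived residue hypusine, at 227 and 174. Arg2 and Nos2, which compete for arginine, had at most 5 counts.

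Genes of division and protein making were nearly all expressed. Of 32 cell cycle genes 31 were expressed, among them the proliferation marker Mki67 (234 and 208 FPKM), Top2a (236 and 167) and Pcna (154 and 104). Of the D-type cyclins Ccnd2 was at 78.3 and 103 FPKM, while Ccnd1 had 5 and 24 counts. All 20 genes of endoplasmic reticulum chaperones and secretion were expressed, with Hspa5 (BiP) at 364 and 415 FPKM and Calr at 317 and 340. The survival genes Mcl1 (186 and 246 FPKM) and Pim1 (163 and 204) stood well above Bcl2 (36.1 and 49.96). All 77 cytosolic ribosomal protein genes, taken by name prefix, were expressed, but Rpl24 (1.5 and 1.18 FPKM) and Rps10 (3.58 and 2.55 FPKM) stood far below the median of 182 and 184. Such genes have many near-identical copies, so reads may be split among them. The mitochondrial genes mt-Co2 (24.4 and 21.7 FPKM) and mt-Atp6 (19.8 and 13.4) were listed far below mt-Co1. So were mt-Co3 (16.4 and 14.7 FPKM), mt-Nd4l (20.1 and 12.5) and mt-Atp8, with 2 counts in each library. The reason was not tested, and these values are uncertain.

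Granule genes were expressed for 8 of 17 (47.1%, near the 43.2% of all protein-coding genes), in an uneven pattern. Besides Gzmb, Gzma was at 355 and 1010 FPKM and the proteoglycan Srgn at 274 and 341. Prf1, the pore-forming partner of granzymes, had only 20 and 52 counts (0.444 and 1.02 FPKM), and Gzme, Gzmf, Gzmg and Gzmk had 0 counts. Cnr2, the gene of cannabinoid receptor 2, which the study's title names, was at 13.4 and 17.3 FPKM, ranks 3949 and 3120. Cnr1 had 0 and 1 counts. Mgll, which degrades the endocannabinoid 2-AG, was at 22.7 and 23.3 FPKM and Faah, which degrades anandamide, at 11 and 12.1. The prostaglandin receptors Ptgir (16.4 and 17.4 FPKM) and Ptger4 (16.8 and 14.5) were in the same range, while the prostaglandin synthase Ptgs2 had 0 counts.

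Of the genes with 0 counts in both libraries, 31298 identifiers (57.4%) and 7157 protein-coding genes (32.5%) were counted, and 8891 protein-coding genes (40.3%) had at most 3 counts in each library. Gene families of other tissues had few expressed members. Among 1135 olfactory receptor genes 1 was expressed and 1070 had no read, and among 57 keratin-associated protein genes all had no read. Of 40 Hox genes and 42 beta defensin genes none was expressed. Of 53 keratin genes 2 were expressed, Krt18 at 4.31 and 5.62 FPKM and Krt80 at 1.28 and 4.17, and 38 had no read. Of 329 vomeronasal receptor genes 2 were expressed, among them Vmn2r97 at 1.41 and 2.8 FPKM, and 300 had no read. Of the markers of other blood cells, defining genes of several types had no read. Lyz2, Csf1r and C1qa of macrophages, S100a8 and S100a9 of neutrophils, Mcpt8 and Fcer1a of basophils and mast cells, and Ncr1 of natural killer cells had 0 counts in both libraries. Some list members did reach 1 FPKM, though, which was 3 of 15 for B cells, 4 of 15 for macrophages, 4 of 15 for dendritic cells and MHC class II, 1 of 15 each for granulocytes and mast cells and for natural killer and CD8 T cells, 0 of 11 for erythroid cells and platelets, and 7 of 15 for group 2 innate lymphoid and gamma delta T cells. The last list was led by Il1rl1, which Th2 cells also express, and by Tcrg-C2 (20 and 31.4 FPKM) and Tcrg-C1 (11.9 and 8.64), constant regions of the gamma chain. At 0 counts in both libraries were 0 of 15 B cell genes, 7 of 15 macrophage genes, 3 of 15 dendritic cell genes and 8 of 15 granulocyte and mast cell genes. Ighm, the immunoglobulin mu heavy chain, was at 19.3 and 15.4 FPKM. Adgre1, which encodes F4/80, was at 11.5 and 22.8 FPKM with 646 and 1452 counts, and Fcgr3 at 21 and 27.1, beside no read of Lyz2 or Csf1r. Cpa3, a mast cell protease, was at 5.90 and 12.0 FPKM, and H2-Ab1 at 23.5 and 22 while its partner H2-Aa was at 0.245 and 0.787. Cd8b1 was at 8.25 and 9.02 FPKM, with Cd8a near 0. The source of these transcripts, in the Th2 cells or in a few other cells, was not tested. Since the RNA is of a bulk culture, fewer cells of a type and less RNA per cell cannot be told apart.

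The regulatory T cell list had 11 of 15 members expressed, but these were led by Il2ra, Tigit and Tnfrsf18, genes that activated T cells also express, while Foxp3 and Ikzf2 (9 counts in each library) were below 1 FPKM. Pecam1, an adhesion molecule of endothelium and leukocytes, was at 44.2 and 43.7 FPKM, beside 0 counts of the matrix gene Dcn. The Y-linked genes Ddx3y (28.3 and 34.1 FPKM) and Eif2s3y (21.4 and 26.8) were expressed in both libraries and Xist had 10 counts in each.

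The libraries differed from each other in some gene groups and not in others. Among the 11209 expressed genes 154 were over 2-fold higher in replicate 2 (1.37%) and 75 over 2-fold higher in replicate 1 (0.669%), on the log2(FPKM + 1) scale. With 1 library on each side there is no test, and 49.3% of expressed genes were higher in replicate 2 by any amount, with a median log2 ratio of −0.0045. Some growth lists had lower medians in replicate 2, but not all. Purine and pyrimidine synthesis had a median log2 ratio of −0.53, with 1 gene higher and 17 lower, and cell cycle and mitosis of −0.49, with 5 higher and 26 lower. Cytosolic ribosomal proteins stood at −0.025, with 8 higher and 12 lower. Cholesterol and fatty acid synthesis had a median of 0.24, with 15 higher and 7 lower. Endoplasmic reticulum chaperones and secretion had 0.21, with 16 higher and 4 lower. Mitochondrial transcripts were lower for all 14 expressed genes, with a median of −0.36, and took 2.25% and 1.75% of counts. Lists of T cell identity and effector function had higher medians in replicate 2. Antigen receptor genes had a median of 0.41, with 21 higher and 4 lower, type 2 cytokines of 0.49, with 6 higher, and granule genes of 0.91, with 7 higher and 1 lower. Th2 factors stood at 0.01, with 13 higher and 10 lower. The part that mitochondrial transcripts or growth had in the other differences was not tested. Summed markers of other cells were higher in replicate 2 for most lists but not all, and single genes made up much of some sums. Cpa3 alone made up 5.90 and 12.0 FPKM of the granulocyte and mast cell list. Il1rl1, which Th2 cells also express, led the innate lymphoid and gamma delta list. The fibroblast, endothelium and epithelium list summed to 54.4 and 55.2 FPKM, and the hepatocyte, neuron and muscle list to 16.9 and 14.5. The summed FPKM of the B cell list was 25.1 and 23.1, of the macrophage list 37.8 and 54.1, of the granulocyte and mast cell list 6.01 and 12.4, of the natural killer and CD8 list 8.99 and 11.1, of the innate lymphoid and gamma delta list 71.7 and 110.9, of the erythroid list 1.44 and 2.3, and of the dendritic and MHC class II list 149 and 60.9, of which Ccr7 alone made up 97.8 and 20.5.

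**Figure D5:**
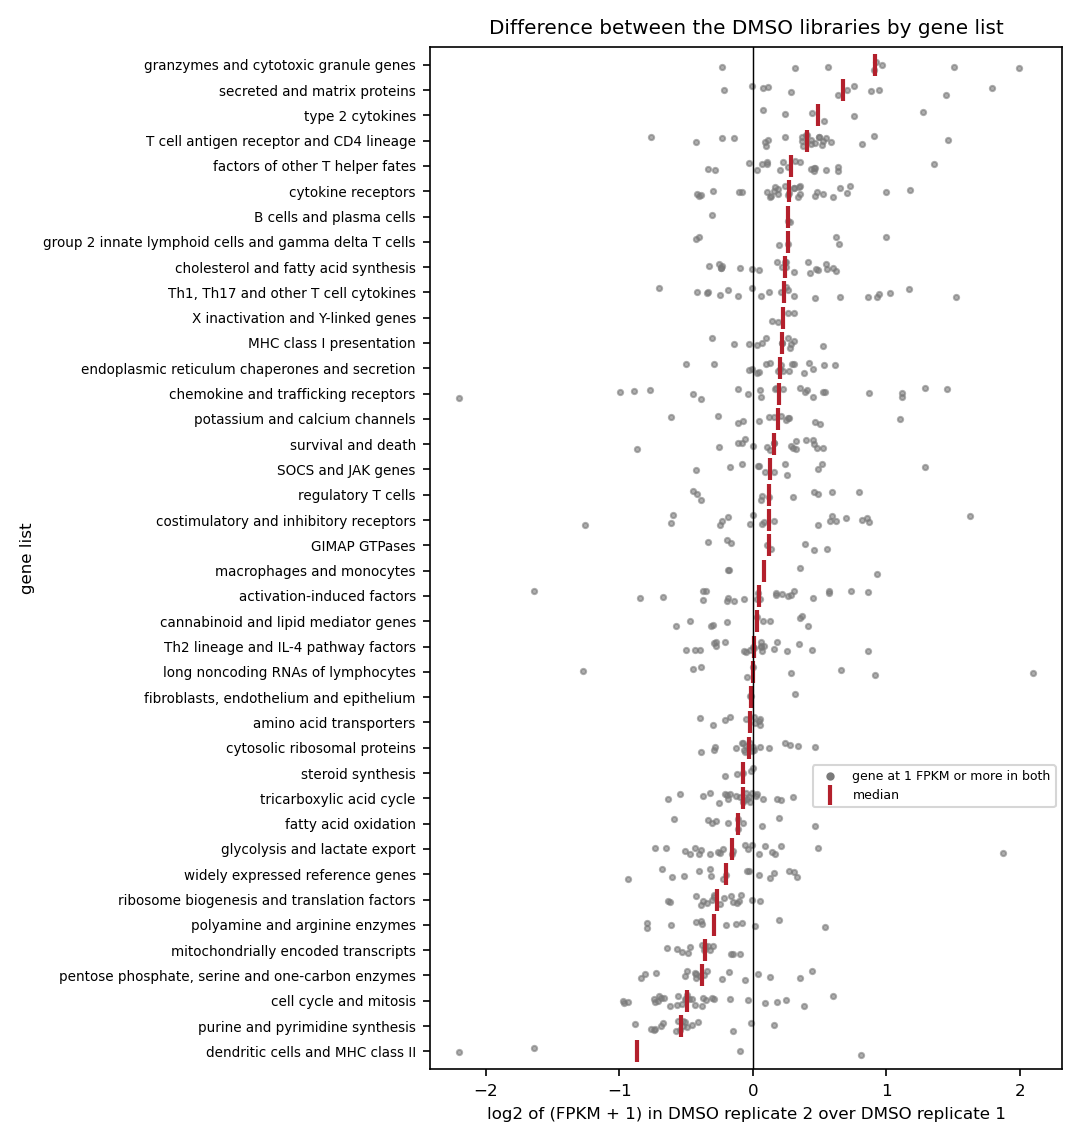
Difference between the libraries for each expressed list member (grey points) and its median (red bars), as log2 of FPKM + 1 in DMSO replicate 2 over DMSO replicate 1 (horizontal axis), for the 40 gene lists with at least 3 expressed members (rows). Granule, secreted protein, type 2 cytokine and antigen receptor lists lie to the right of 0, and purine, cell cycle, one-carbon, mitochondrial and dendritic cell lists lie to the left.

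The widest gaps were seen in genes of many kinds. Of 20 genes with the largest differences, 10 in each direction at a mean of 5 FPKM or more, only 4 were protein-coding, and the rest were mainly pseudogenes and short receptor joining segments or transfer RNAs with few reads. The protein-coding ones were Rps27rt (67.2 and 399.6 FPKM), a retrocopy of a ribosomal protein gene, Sumo2 (5.69 and 29.0), Ccr7 and Batf3. When protein-coding genes alone were ranked in this way, a choice made after the values were seen, the genes higher in replicate 2 included Gzmb, at 3.98 times the level of replicate 1, Fgl2, which encodes a secreted immunoregulatory protein, at 10.6 and 40.2 FPKM, the inhibitory receptor gene Vsir at 8.08 and 27.0 and the giant scaffold gene Ahnak at 14.8 and 49. Those higher in replicate 1 included Tgm2, a transglutaminase, at 59.0 and 22.4 FPKM, and Them6 at 19.9 and 6.44. For Rps27rt, Sumo2 and Gapdh, reads may be shared with near-identical copies.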

How the data were processed

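RNA of the DMSO libraries, replicates 1 and 2, was analysed. Per the labels' protocols, TRIzol was used to extract RNA and a SMARTER mRNA-seq kit to prepare libraries. The submitters' processing notes list the build GRCm38 and, with no role stated, DESeq2 1.4.5, RSEM 1.3.1 and Bowtie2 2.3.4.3. The annotation release and strand setting are not given in the sources used here. Counts per gene are unscaled whole numbers, per the file headers and the values. FPKM was computed by the authors from the deposited gene length in bases and a depth of 17417809.9 and 19671480.7, which is below the totals of 18041457 and 20479254 counts. Gene length is a deposited column of another kind and was not analysed by itself. Of 54532 identifiers, 54495 are in GENCODE M21 and 53585 have the same coordinates there, which was used for exon overlaps.

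Genes were ranked by deposited FPKM within each library, and ratios used a pseudocount of 1. No group was compared and no p-value was computed. With 2 libraries, both values are printed in place of a mean and SD. In all, 45 gene lists with 881 symbols were used, 5 of them added after values were seen, as were the name-prefix families, segments and loci. Members and lists were chosen with earlier results of these data known. Genes were named from the 5 markers, the 30 highest protein-coding genes, in each list the first 4 members and the 8 of highest mean FPKM, absent members where counted, and the 10 with the widest gap each way; not every such gene is printed. Other named genes were chosen after their values were seen. Expressed calls, ranks and calls of 2-fold gaps were also tested on simulated data. Those data held counting noise only, which is less than the spread between the real libraries. Scaling by TMM used edgeR 4.0.16 in R 4.3.3; Python 3.11.15 and matplotlib 3.10.9 did the rest. Thresholds, scalings, filters and each library left out were tried as alternatives. Other list members enter the counts only, and results for some are not reported here.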

Additional observations from a re-analysis of the deposited data

How the results depend on the processing

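At a threshold of 5 FPKM, 6888 in place of 11209 genes counted as expressed. A threshold of 0.5, a count minimum and TPM gave 10909 to 13874, protein-coding genes alone 9517, and leaving out a library 11753 to 11868. The 100 highest genes took 28.7% of FPKM on average (28.3 to 29.1% in either library), 25.4% without mitochondrially encoded genes and 18.7% of counts, which are not per length. The count of genes over 2-fold apart, 229, was 419 with a pseudocount of 0.1, 65 with 5, 87 at 5 FPKM or more, 541 without a filter and 211 with either CPM scaling; leaving out a library gives no value. Genes with no read numbered 31298, 7157 over protein-coding genes and 33243 to 33798 in a lone library. Expressed members moved by more than 1.5 times in 11 of 45 lists at 5 FPKM and in 2 at 0.5. Without replicate 1 they moved in 2 lists, chemokines (1 to 2) and erythroid cells (0 to 1), and without replicate 2 in 1, hepatocyte, neuron and muscle genes (1 to 2). Ranks by counts moved for 8 of 10 genes, since length then enters. With TMM, an alternative chosen after seeing the data, 40 of 40 list medians kept their sign. No paired analysis was possible because no groups were compared. Depth limits values near the floor of 3 counts, and 2 libraries limit the spread.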

Other observations

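Some gene groups were listed after their values were seen. Cyp11a1, the enzyme that makes pregnenolone from cholesterol and a known gene of Th2 cells, was at 123 and 124 FPKM in the DMSO libraries. The rest of the steroid pathway was not like it. Only 5 of 16 genes were expressed, Star, which feeds cholesterol to the enzyme, was at 1.97 and 1.83 FPKM, and its electron donors Fdx1 and Fdxr at 5.12 and 4.31, and at 3.70 and 3.33. Hsd3b1, Cyp17a1, Cyp21a1 and Cyp19a1, which act on pregnenolone or its products, had 0 counts, while the later enzymes Srd5a1 and Hsd17b3 had 41 and 29, and 16 and 2.

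Ion channels of T cells were expressed for 14 of 16 genes. The potassium channels Kcnk5 (64.7 and 78.4 FPKM), Kcna3 (30.6 and 28.3) and Kcnn4 (17.4 and 20.9) stood with the calcium entry gene Orai1 (12.1 and 14.8). Of 17 genes of secreted and matrix proteins 12 were expressed, but Timp1, Plau and Plaur were below 1 FPKM. All 13 genes of MHC class I presentation and all 8 GIMAP GTPases, lymphocyte survival genes, were expressed, with H2-K1 at 535 and 664 FPKM and Gimap3 at 138 and 190. Among long noncoding RNAs, Malat1 was at 107 and 169 FPKM.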
